A study of Homo sapiens with 16 samples.

Results

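The guanylate-binding proteins GBP1, GBP2, GBP3, GBP4 and GBP5 were followed in total RNA-seq of 2 multiple myeloma cell lines. They were taken by symbol, as 5 of the 7 guanylate-binding protein genes among the 23354 genes of the count table, and GBP6 and GBP7 are given beside them. The family was selected with earlier results of these libraries in view, and its values in TAK-981 against vehicle are taken as those that chose it. These values, and every comparison of the combination with vehicle, are therefore given as a description with no test. The tests were kept for the comparisons that do not set a TAK-981 library against vehicle. Dex against vehicle, its difference between the lines, and MM1R against MM1S in vehicle are tested but share the vehicle libraries with those values. The combination against TAK-981 is tested too but shares the TAK-981 libraries with them, so its p-values are not independent of that choice.

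MM1S is a myeloma line sensitive to the glucocorticoid dexamethasone (Dex), and MM1R is its Dex-resistant counterpart. In each line a vehicle control stood beside 3 treatments of 48 h: TAK-981 at 0.1 μM, Dex at 1 μM, and both agents at these doses (combo). TAK-981 blocks the E1 enzyme of SUMO conjugation, the attachment of the small protein SUMO to other proteins. Each of the 8 groups held 2 libraries, 16 in all, of RNA depleted of ribosomal RNA. Nothing states that the libraries of a group came from separate cultures, so the p-values measure the spread between these libraries, which may be technical. Each line is a single line, so a difference between MM1S and MM1R cannot be told apart from any other difference between these 2 lines.

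Guanylate-binding proteins are large GTPases related to dynamin, and interferon-γ is their best known inducer. They bind and hydrolyse GTP, assemble on membranes and on the surface of intracellular bacteria, and help to bring caspase-4 and inflammasomes to them. GBP1, GBP2 and GBP5 end in a motif that carries a lipid (prenyl) anchor, whereas GBP3 and GBP4 are not known for one. Interferon-γ acts through its receptor chains IFNGR1 and IFNGR2 and the kinases JAK1 and JAK2, and its target genes often carry GAS elements. Type I interferons act in part through STAT2 and IRF9 on the interferon-stimulated response element (ISRE), a pair of GAAA half-sites that IRF1 also binds.

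The total count per library ran from 15707587 to 24796539 (median 20268927). A count of 3, the limit that a count of 0 allows by counting error alone, was worth 0.124 to 0.186 CPM, the counts scaled to library size with TMM. All 10 plasma cell markers, among them SDC1, PRDM1 and XBP1, were above 1 CPM in all 16 libraries. Of 6 myeloid markers CD68 was at 15 to 37.9 CPM and ITGAM at 0.568 to 3.76 CPM, and the other 4 (CD14, LYZ, CSF1R and FCGR3A) stayed at or below 0.454 CPM in every library. Of the T and NK cell list 5 of 7 genes never passed 1 CPM, and of the stromal list 3 of 5.

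The genes lie next to each other on chromosome 1. In hg19, the build named in the submitters' processing notes, GBP3 spans chr1:89472360-89488549, GBP1 chr1:89517987-89531043 and GBP2 chr1:89571843-89616258. GBP4 follows at chr1:89646831-89664633 and GBP5 at chr1:89724634-89738544. All 5 members are on the minus strand. GBP7 (chr1:89597434-89641723, minus strand) overlaps GBP2 by 18825 bases on the same strand, and GBP6 (chr1:89829436-89853719) closes the cluster on the plus strand, for a length of 381 kb.

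The promoters of GBP1, GBP3 and GBP4 are shown because they are the 3 of the 5 members with an entry in the promoter table used, and each holds 1 match to the ISRE core. Which members are shown was thus set by the table, and nothing on GBP2 and GBP5 can be read from them. The sequences are from RefSeq (GRCh38.p14), from 150 bases before to 20 bases after the start of the gene, on the gene's own strand. They cover chr1:89065189-89065358 for GBP1, chr1:89022847-89023016 for GBP3 and chr1:89198923-89199092 for GBP4, all minus strand. Capitals mark the match to the core GAAANNGAAA, which reads TTTCNNTTTC on the strand printed.
GBP1: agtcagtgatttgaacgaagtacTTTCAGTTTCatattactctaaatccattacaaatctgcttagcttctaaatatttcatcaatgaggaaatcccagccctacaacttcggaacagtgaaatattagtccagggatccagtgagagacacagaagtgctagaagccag
GBP3: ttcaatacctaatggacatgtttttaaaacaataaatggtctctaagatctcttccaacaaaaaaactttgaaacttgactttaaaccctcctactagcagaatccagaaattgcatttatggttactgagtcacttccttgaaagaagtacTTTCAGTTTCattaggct
GBP4: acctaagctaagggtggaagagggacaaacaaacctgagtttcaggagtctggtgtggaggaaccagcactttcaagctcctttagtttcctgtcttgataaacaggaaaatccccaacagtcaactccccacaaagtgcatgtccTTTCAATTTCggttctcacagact

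The core was searched on both strands in windows of 300 bases, 250 before to 50 after each start. It was present in 996 of 27305 promoters (3.65%). In GBP1 the match ran from position -127 to -118 relative to the start, in GBP3 from 3 to 12 and in GBP4 from -4 to 6. GBP1 and GBP3 hold the same 10 letters, TTTCAGTTTC, and GBP4 holds TTTCAATTTC. The GAS core TTCNNNGAA, found in 7.88% of all promoters, had 1 match in GBP3 (TTCCTTGAA, positions -15 to -7) and no match in the windows of GBP1 and GBP4. The windows of GBP6 and GBP7 held neither core. The ISRE core was also present in 18 of the 27 promoters found for the type I interferon-stimulated genes listed below, and in 6 of 12 for the genes induced together with the family by interferon-γ. Only these exact cores were searched, so a window without a match may still hold an element with other letters. A match describes letters in a window and is not a measured binding site.

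The members differed widely in level. Levels between genes are compared as CPM per kilobase of the gene's length in the table. In vehicle-treated MM1S cells GBP3 was at 12.4 ± 0.0521 and GBP1 at 10.4 ± 0.844 CPM per kilobase (mean ± SD, n = 2). GBP2 followed at 2.25 ± 0.0837 and GBP4 at 0.358 ± 0.0616 CPM per kilobase (SD, n = 2). GBP5 had a count of 0 in both libraries. In vehicle-treated MM1R cells the order of GBP3 (11.9 ± 0.0372) and GBP1 (5.95 ± 0.454) was the same, but GBP4 (0.249 ± 0.0281 CPM per kilobase, SD, n = 2) lay above GBP2 (0.162 ± 0.0627).

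**Figure D1:**
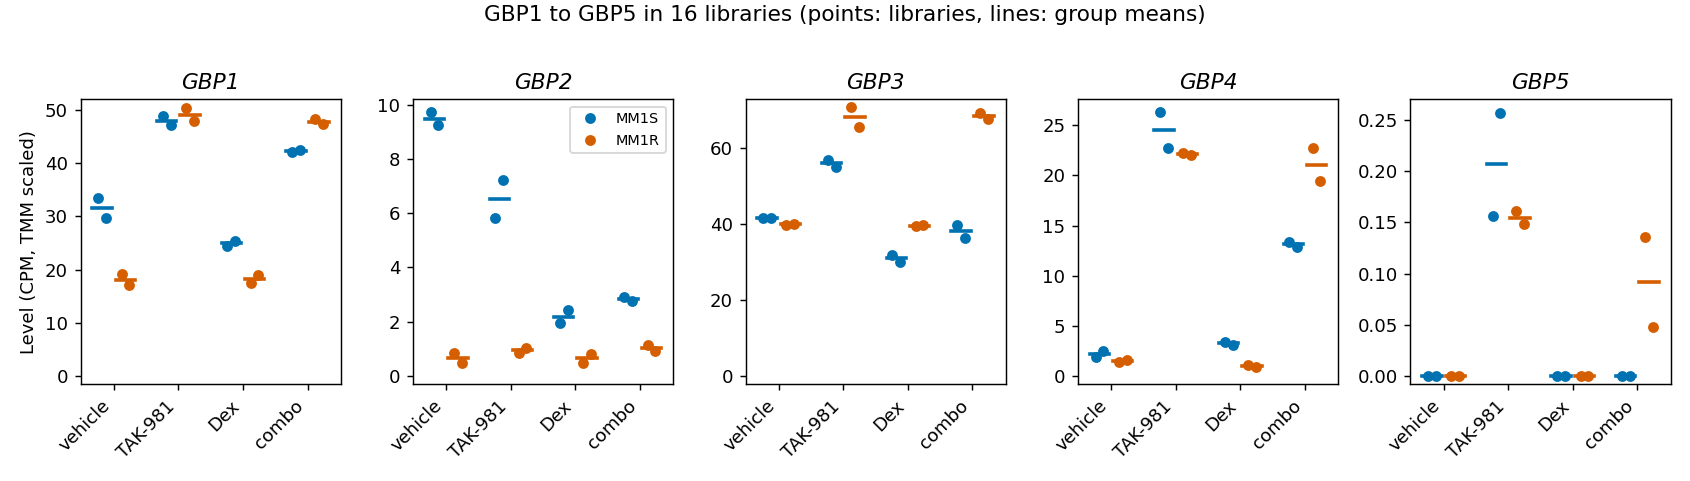
Level of each member in CPM (counts scaled to library size, vertical axes differ between panels) in vehicle, TAK-981, Dex and combo. Points are the 2 libraries of a group and lines their mean, with MM1S in blue and MM1R in orange. GBP4 was between 12.9 and 26.3 CPM in the 8 libraries that received TAK-981 and at or below 3.42 CPM in the other 8.

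GBP4 showed the widest change of level with TAK-981. Its counts in vehicle-treated MM1S cells were 41 and 48, which is 1.93 and 2.46 CPM. After TAK-981 they were 507 and 441, which is 26.3 and 22.7 CPM. The groups did not overlap, and the level was 11.2-fold higher (log2 difference 3.48, SE 0.143).

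In MM1R cells GBP4 was at 1.41 and 1.65 CPM in vehicle and at 22.2 and 22 CPM after TAK-981. This is a 14.4-fold higher level (log2 difference 3.85, SE 0.148). Both lines therefore started at a low level, with at most 48 counts in a library, and both reached at least 414.

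GBP1, the member whose GTPase cycle is best studied, was at 33.4 and 29.7 CPM in vehicle-treated MM1S cells and at 48.8 and 47.1 CPM after TAK-981. The log2 difference was 0.60 (SE 0.0778), or 1.52-fold. In MM1R cells it was at 19.1 and 17.1 CPM in vehicle and at 50.3 and 47.9 CPM after TAK-981, a log2 difference of 1.44 (SE 0.0807), or 2.71-fold. The TAK-981 libraries of both lines came to the same range of 47.1 to 50.3 CPM from different vehicle levels.

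GBP3 was the most abundant member in all 8 groups before scaling to length except MM1S combo. It was at 41.6 and 41.8 CPM in vehicle-treated MM1S cells and at 57 and 55.2 CPM after TAK-981 (log2 difference 0.43, SE 0.0688). In MM1R cells it was at 39.9 and 40.1 CPM in vehicle and at 70.9 and 65.6 CPM after TAK-981 (log2 difference 0.77, SE 0.0677). The groups did not overlap in either line.

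GBP2 was the exception. In MM1S cells it was at 9.73 and 9.23 CPM in vehicle and lower, at 5.81 and 7.21 CPM, after TAK-981 (log2 difference -0.54, SE 0.155). In MM1R cells the counts were 21 and 12 in vehicle and 16 and 21 after TAK-981, and the 2 groups overlapped (log2 difference 0.48, SE 0.346). When single libraries were left out, the MM1R value ran from 0.13 to 0.93.

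GBP5, which takes part in NLRP3 inflammasome assembly, was at the limit of detection and did not pass the filter on low counts. Its counts were 3 and 5 in MM1S TAK-981, 3 and 3 in MM1R TAK-981, and 3 and 1 in MM1R combo. It had a count of 0 in the other 10 libraries. So 5 of the 6 libraries that held any GBP5 read had 3 or more counts, and all 6 had received TAK-981.

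GBP7 showed a like pattern at counts as low, with 5 and 4 in MM1S TAK-981, 5 and 5 in MM1R TAK-981, 1 or 2 in the 4 combo libraries and 0 in the 8 vehicle and Dex libraries. GBP6 had 8 and 9 counts in MM1S vehicle and 8 and 5 in MM1S TAK-981, but 0 and 2 in MM1R vehicle against 7 and 8 in MM1R TAK-981. Neither passed the filter on low counts.

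Of the 4 members that passed the filter, 4 had TAK-981 and vehicle libraries that did not overlap in MM1S, where 70.3% of all 14215 genes did not. In MM1R this held for 3 of 4, where it held for 81.3% of all genes. The median log2 difference of the 4 was 0.52 in MM1S and 1.10 in MM1R, while that of all genes was 0.04 and 0.00429. Nothing is read from these counts, since this contrast is taken to have chosen the family.

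**Figure D2:**
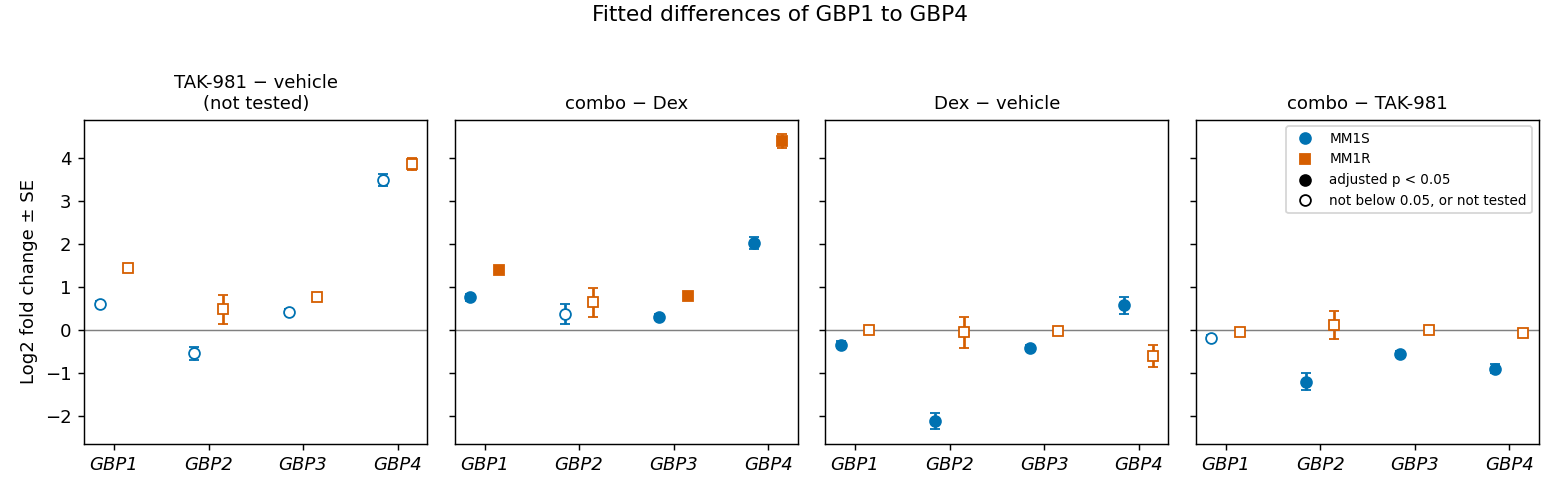
Fitted log2 fold change with its SE for the 4 members that passed the filter, in 4 comparisons, for MM1S (blue circles) and MM1R (orange squares). Filled symbols have an adjusted p under 0.05, and the TAK-981 against vehicle panel was not tested. GBP4 lies highest in combo minus Dex, at 2.02 in MM1S and 4.38 in MM1R, and GBP2 lies lowest in Dex minus vehicle of MM1S, at -2.11.

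Whether TAK-981 had the same effect in the presence of Dex was asked by setting the combination against Dex alone. This contrast shares no library with TAK-981 against vehicle. In MM1S cells 3 of the 4 members rose and in MM1R cells the same 3, GBP1, GBP3 and GBP4. Of all genes 47.6% passed the test in MM1S and 48.4% in MM1R, with 22.2% and 23.1% higher. The median log2 fold change of the 4 members was 0.56 in MM1S and 1.09 in MM1R, against 0.00651 and 0.00263 over all genes. Marker genes moved here too. Of 10 plasma cell markers 1 rose and 6 fell in MM1S, and 3 rose and 2 fell in MM1R. Both tested myeloid markers rose in both lines (medians 0.828 and 1.8). Of 3 tested T and NK cell markers 1 fell in MM1S and 2 in MM1R. Of 2 tested stromal markers neither was called in MM1S, and 1 rose and 1 fell in MM1R. The part of these markers in the result was not tested.

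In MM1S cells GBP4 rose from 3.42 and 3.08 CPM with Dex to 13.4 and 12.9 CPM with the combination (log2 fold change 2.02, SE 0.146, 4.04-fold, edgeR adjusted p = 2.44e-09). In MM1R cells it rose from 1.09 and 0.917 to 22.7 and 19.4 CPM (log2 fold change 4.38, SE 0.162, 20.8-fold, edgeR adjusted p = 2.34e-13). The rise was larger in MM1R by 2.37 on the log2 scale (SE 0.249, edgeR adjusted p = 3.32e-06). A difference between the lines in this contrast was called for 12.7% of all genes and for 3 of the 4 members.

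GBP1 rose from 24.5 and 25.4 to 42.1 and 42.5 CPM in MM1S (log2 fold change 0.76, SE 0.081, edgeR adjusted p = 4.05e-07). It rose from 17.4 and 18.9 to 48.2 and 47.3 CPM in MM1R (log2 fold change 1.39, SE 0.0808, edgeR adjusted p = 1.61e-10). The difference between the lines was 0.63 (SE 0.114, edgeR adjusted p = 0.000839). The combo libraries of MM1R lay above those of MM1S although the Dex libraries lay below.

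GBP3 rose from 32 and 30.1 to 39.9 and 36.4 CPM in MM1S (log2 fold change 0.30, SE 0.0731, edgeR adjusted p = 0.00275). In MM1R it rose from 39.5 and 39.7 to 69.3 and 67.8 CPM (log2 fold change 0.79, SE 0.0676, edgeR adjusted p = 2.33e-08), and the line difference was 0.50 (SE 0.0995, edgeR adjusted p = 0.00208). GBP2 did not pass the test in either line. Its log2 difference was 0.36 in MM1S (95% interval -0.12 to 0.85, edgeR adjusted p = 0.208) and 0.64 in MM1R (-0.07 to 1.36, adjusted p = 0.129). Its line difference was 0.28 (-0.58 to 1.14, adjusted p = 0.728).

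Dex alone changed all 4 tested members in MM1S cells, 3 downward and 1 upward, in a comparison that called 42.3% of all genes. GBP2 changed most. It fell from 9.73 and 9.23 CPM in vehicle to 1.97 and 2.42 CPM with Dex (log2 fold change -2.11, SE 0.186, edgeR adjusted p = 3.76e-08), so that 387 counts in the 2 vehicle libraries stood against 86 in the 2 Dex libraries.

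GBP3 fell from 41.6 and 41.8 to 32 and 30.1 CPM (log2 fold change -0.43, SE 0.0717, edgeR adjusted p = 0.000101). GBP1 fell from 33.4 and 29.7 to 24.5 and 25.4 CPM (log2 fold change -0.34, SE 0.0816, edgeR adjusted p = 0.0025). GBP4 moved the other way, from 1.93 and 2.46 to 3.42 and 3.08 CPM (log2 fold change 0.57, SE 0.195, edgeR adjusted p = 0.0248).

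Marker lists moved beside these changes with Dex in MM1S, where 42.3% of all genes passed the test. Of 10 plasma cell markers 6 fell and 1 rose (median -0.65). Both tested stromal markers fell, with the 5 stromal genes together at no more than 3.74 CPM in any library. Of 3 tested T and NK cell markers 1 rose and 2 fell. Their part in the result was not tested.

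The calls of GBP1 and GBP4 were lost without single libraries, with the direction kept. Without replicate 1 of MM1S vehicle the log2 fold change was -0.254 for GBP1 (edgeR adjusted p = 0.0598) and 0.399 for GBP4 (adjusted p = 0.218). Without replicate 1 of MM1S Dex it was 0.493 for GBP4 (adjusted p = 0.123). GBP2 and GBP3 were the 2 members still called without that vehicle library. Over all single libraries left out, the adjusted p ran from 0.00121 to 0.0598 for GBP1 and from 0.0186 to 0.218 for GBP4.

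In MM1R cells no member passed the test with Dex, and neither did any other gene (0% by edgeR and 0 genes by DESeq2, with 395 and 159 genes at an unadjusted p under 0.05). GBP1 was at 19.1 and 17.1 CPM in vehicle and at 17.4 and 18.9 CPM with Dex, a log2 difference of 0.00673 with a 95% interval from -0.17 to 0.19. GBP3 differed by -0.02 (-0.16 to 0.13) and GBP2 by -0.06 (-0.82 to 0.71). GBP4 was lower in both Dex libraries, at 1.09 and 0.917 against 1.41 and 1.65 CPM, with a log2 difference of -0.60 (SE 0.252, 95% interval -1.13 to -0.07, edgeR adjusted p = 1), and was among the 395 genes at an unadjusted p under 0.05.

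The effect of Dex differed between the lines for all 4 tested members, against 28.1% of all genes. The log2 fold change in MM1R minus that in MM1S was 2.05 for GBP2 (SE 0.423, edgeR adjusted p = 0.00126), 0.41 for GBP3 (SE 0.0995, adjusted p = 0.00468), 0.35 for GBP1 (SE 0.118, adjusted p = 0.0351) and -1.17 for GBP4 (SE 0.319, adjusted p = 0.0099). The call for GBP1 was lost without the filter on low counts (adjusted p = 0.0644), in DESeq2 (0.0623), and without replicate 1 of MM1S vehicle (0.172), replicate 1 of MM1S Dex (0.0771), replicate 2 of MM1R vehicle (0.17) or replicate 2 of MM1R Dex (0.129). Its adjusted p ran from 0.018 to 0.0644 over the other settings and from 0.0229 to 0.172 with 1 library left out. The call for GBP4 was lost without replicate 2 of MM1R vehicle (adjusted p = 0.0539, from 0.00626 to 0.0539 with 1 library left out), which left 2 of the 4 members called.

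Adding Dex to TAK-981 lowered 3 of the 4 members in MM1S, where 35.1% of all genes passed the test. This contrast shares the TAK-981 libraries with the values taken to have chosen the family, so its p-values are not independent of that choice. GBP4 fell from 26.3 and 22.7 CPM with TAK-981 to 13.4 and 12.9 CPM with the combination (log2 fold change -0.90, SE 0.11, edgeR adjusted p = 3.34e-06). GBP2 fell from 5.81 and 7.21 to 2.91 and 2.75 CPM (log2 fold change -1.20, SE 0.193, edgeR adjusted p = 7.83e-05). GBP3 fell from 57 and 55.2 to 39.9 and 36.4 CPM (log2 fold change -0.56, SE 0.0702, edgeR adjusted p = 4.96e-06).

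Some marker genes moved in this contrast too, where 35.1% of all genes passed the test. Of 10 plasma cell markers 8 fell and none rose (median -0.56). Among the other tested markers 1 of 2 stromal, 1 of 2 myeloid and 1 of 3 T and NK cell markers fell. These lists are too short to be set apart from the share over all genes. Their part in the result was not tested.

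GBP1 was at 48.8 and 47.1 CPM with TAK-981 and at 42.1 and 42.5 CPM with the combination, and its log2 difference of -0.18 (SE 0.077, 95% interval -0.34 to -0.02) had an edgeR adjusted p of 0.0751. So GBP4, the member that Dex alone raised in MM1S, was lower with Dex once TAK-981 was present. The combination of MM1S stood 1.47 below the sum of the log2 differences of TAK-981 and Dex alone for GBP4 (-1.47, SE 0.224), and 0.905 above it for GBP2 (SE 0.279). For GBP1 and GBP3 the departure was 0.158 (SE 0.112) and -0.131 (SE 0.1). These departures contain TAK-981 against vehicle and were not tested.

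In MM1R cells the combination and TAK-981 alone overlapped for all 4 members, with log2 differences from -0.07 to 0.11. No gene of 14215 passed this test (0% by edgeR and 0 by DESeq2, with 214 and 50 genes at an unadjusted p under 0.05). The 95% interval was -0.20 to 0.12 for GBP1, -0.13 to 0.15 for GBP3, -0.29 to 0.14 for GBP4 and -0.57 to 0.79 for GBP2.

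Against vehicle, the combination left GBP3 of MM1S slightly lower, at 38.2 ± 2.51 against 41.7 ± 0.175 CPM (SD, n = 2). GBP1 of MM1S was higher with the combination, at 42.3 ± 0.316 against 31.5 ± 2.57 CPM (SD, n = 2), GBP4 was 6-fold higher, and GBP2 was 3.35-fold lower. In MM1R the combination and vehicle differed by a log2 value of 1.40 for GBP1, 0.78 for GBP3, 3.78 for GBP4 and 0.59 for GBP2. These values set libraries with TAK-981 against vehicle, as the values taken to have chosen the family do, and were not tested.

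**Figure D3:**
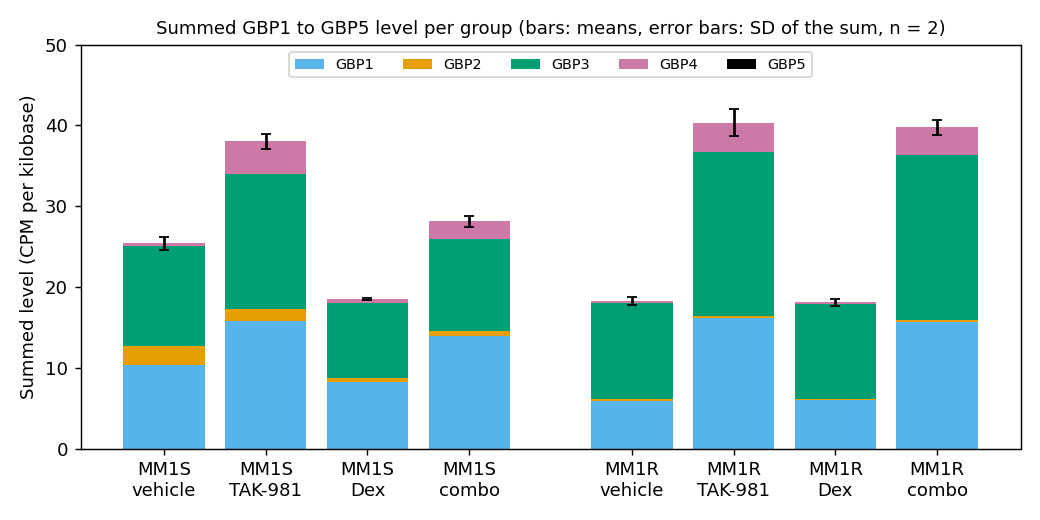
Sum of the mean levels of GBP1 to GBP5 in CPM per kilobase of gene length for each group, stacked by member, with the SD of the sum over 2 libraries as error bars. The sum was 38 in MM1S and 40.3 in MM1R with TAK-981, and 28.1 and 39.8 with the combination.

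Summed per kilobase of length, the family was at 25.4 ± 0.814 CPM per kilobase in vehicle-treated MM1S and at 18.3 ± 0.451 in MM1R (SD, n = 2). With TAK-981 the sums came to 38 ± 0.931 and 40.3 ± 1.66, and with Dex to 18.5 ± 0.172 and 18.1 ± 0.423. With the combination they were 28.1 ± 0.724 and 39.8 ± 0.946. The sum was made of GBP1 and GBP3 for the most part: GBP3 alone gave 48.9% of it in MM1S vehicle and 65.2% in MM1R vehicle.

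The makeup moved with treatment. The share of GBP4 was 1.41% in MM1S vehicle, 10.5% with TAK-981 and 7.63% with the combination, and 1.36%, 8.95% and 8.61% in MM1R. The share of GBP2 in MM1S was 8.85% in vehicle, 4.07% with TAK-981 and 2.82% with Dex. In MM1R it stayed at or below 0.881% in every group.

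The vehicle-treated lines themselves differed in 2 of the 4 members, against 48.2% of all genes. GBP2 was at 0.868 and 0.495 CPM in MM1R against 9.73 and 9.23 CPM in MM1S, 13.8-fold lower (log2 fold change -3.79, SE 0.221, edgeR adjusted p = 2.51e-10). GBP1 was at 19.1 and 17.1 against 33.4 and 29.7 CPM (log2 fold change -0.80, SE 0.0825, edgeR adjusted p = 3.65e-07). GBP3 differed by -0.06 (95% interval -0.21 to 0.09, adjusted p = 0.505).

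GBP4 was lower in both MM1R vehicle libraries, with a log2 difference of -0.51 (SE 0.218) and an edgeR adjusted p of 0.0599. It passed the test with library size only (adjusted p = 0.0396) and without replicate 1 of MM1S vehicle (0.0463). Its adjusted p ran from 0.0396 to 0.107 over the other settings and from 0.0463 to 0.367 with 1 library left out.

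The order of the 8 groups by level differed between the genes. GBP1 was highest in MM1R TAK-981, MM1S TAK-981 and MM1R combo, 3 groups whose libraries overlapped from one to the next, and lowest in MM1R vehicle and MM1R Dex, which overlapped too. GBP2 was highest in the 4 MM1S groups, in the order vehicle, TAK-981, combo and Dex with no overlap, and the 4 MM1R groups below them overlapped from one to the next. GBP3 was highest in MM1R combo and MM1R TAK-981, which overlapped, and lowest in MM1S Dex. GBP4 was highest in MM1S TAK-981, followed by MM1R TAK-981 and MM1R combo, which overlapped, and then by MM1S combo.

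Over the 8 libraries of MM1R, log2 CPM of GBP1 moved with that of GBP3 (Pearson r = 0.996) and GBP4 (r = 0.989), and r between GBP3 and GBP4 was 0.993. In MM1S the same 3 values were 0.803, 0.875 and 0.641, again over 8 libraries. GBP2 and GBP4 had r = -0.0704 in MM1S and 0.688 in MM1R. These values describe 4 groups of 2 libraries that share treatments, and carry no test.

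The pathway that controls the family was read from lists written from general knowledge, with earlier results of these libraries known. Their counts and p-values in TAK-981 against vehicle are therefore not independent of that choice. Of the 9 interferon genes listed, few reads were found. IFNG had at most 2 counts in any library, IFNB1 at most 3 and IFNL3 at most 2, and none of the 9 ligand genes passed the filter on low counts. IRF9 was listed at 0 in every library. The sources used here give no reason for this, so it is not read as absence of IRF9 RNA.

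The receptors and kinases were present and moved little. With TAK-981, 4 of 9 were higher and 2 lower in MM1S, and 6 higher and 1 lower in MM1R, where 25.2% and 25.8% of all genes were higher and 23.7% and 27.6% lower. IFNGR1, the ligand-binding chain of the interferon-γ receptor, rose from 24.9 to 36.1 CPM in MM1S (log2 fold change 0.54, SE 0.0854, edgeR adjusted p = 4.21e-05) and from 23.8 to 34.7 CPM in MM1R (0.54, SE 0.0847, adjusted p = 3.15e-05). IFNGR2 had a log2 difference of 0.10 in MM1S (adjusted p = 0.238) and rose by 0.25 in MM1R (adjusted p = 0.00524). JAK2 fell by 0.335 in MM1S (adjusted p = 0.00115) and rose by 0.30 in MM1R (adjusted p = 0.00212). JAK1 rose by 0.18 in MM1R (adjusted p = 0.00935) and differed by 0.10 in MM1S (adjusted p = 0.134).

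The transcription factors rose together: 8 of the 10 tested in MM1S and 10 of 10 in MM1R, with none lower. STAT2, part of the complex that binds the ISRE, rose by 0.89 in MM1S (SE 0.0594, edgeR adjusted p = 6.93e-10) and 0.94 in MM1R (SE 0.0596, adjusted p = 4.51e-10). IRF1 rose from 131 to 203 CPM in MM1S and from 137 to 222 CPM in MM1R (log2 fold changes 0.64 and 0.70). IRF2, which competes with IRF1 for the same element, rose by 0.24 and 0.31. The median of the list was 0.61 in MM1S and 0.60 in MM1R, against 0.04 and 0.00429 over all genes.

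Of 8 inhibitors of the pathway 4 were higher in MM1S, and 5 higher and 1 lower in MM1R. SOCS1, which blocks JAK kinases, rose from 3.23 to 6.1 CPM in MM1S (log2 fold change 0.91, SE 0.179, edgeR adjusted p = 0.000353) and from 2.89 to 6.17 CPM in MM1R (1.09, SE 0.177, adjusted p = 4.89e-05).

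Among 17 tested genes that interferon-γ induces together with the family, 13 were higher and 2 lower with TAK-981 in MM1S, and 13 higher and 1 lower in MM1R. The list median was 0.57 in MM1S and 0.69 in MM1R. PSMB9, a subunit of the immunoproteasome, rose by 0.57 and 0.69, and TAP1, a peptide transporter, by 0.68 and 0.91. CIITA, the activator of MHC class II genes, fell from 57 to 42 CPM in MM1S (log2 fold change -0.44, SE 0.0962, edgeR adjusted p = 0.000903) and was not called in MM1R (0.15, adjusted p = 0.221). CXCL10 rose from 4.14 to 6.07 CPM in MM1S (0.55, SE 0.192, adjusted p = 0.0236) and differed by 0.10 in MM1R (adjusted p = 0.606).

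Of the type I interferon-stimulated genes 30 of 30 rose in MM1S and 29 of 30 in MM1R, with medians of 1.70 and 2.34. BST2 was the gene not called in MM1R (log2 difference 0.24, adjusted p = 0.0821) and is named after its value was seen. ISG15 rose from 1.45 to 18.3 CPM in MM1S and from 1.53 to 32.9 CPM in MM1R (log2 fold changes 3.65 and 4.42). IFIT3 rose by 2.14 and 3.83 on the log2 scale. GBP4, with untested differences of 3.48 and 3.85, lay above the median of this list in both lines, and GBP1, GBP2 and GBP3 lay below it.

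A list of other GTPases and related genes held MX1, MX2, IRGM and GVINP1. All were higher in both lines, 4 of 4, with medians of 2.47 and 4.57. IRGM was at low levels, with means of 0.15 CPM in vehicle and 0.723 CPM with TAK-981 in MM1S. In MM1R its means were 0.0413 and 0.808 CPM (log2 fold changes 2.25 in MM1S and 4.09 in MM1R). MX1, an antiviral GTPase of the dynamin family, rose from 22.5 to 286 CPM in MM1S (log2 fold change 3.67, SE 0.0733, edgeR adjusted p = 1.04e-16) and from 14.3 to 472 CPM in MM1R (5.05, SE 0.0777, adjusted p = 9.31e-19). MX2 rose by 2.69 and 5.18. These genes were not selected by the rule that took the family. Like the other lists, theirs was written with earlier results of these libraries known. The counts and p-values of this list in TAK-981 against vehicle are therefore not independent of that choice.

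**Figure D4:**
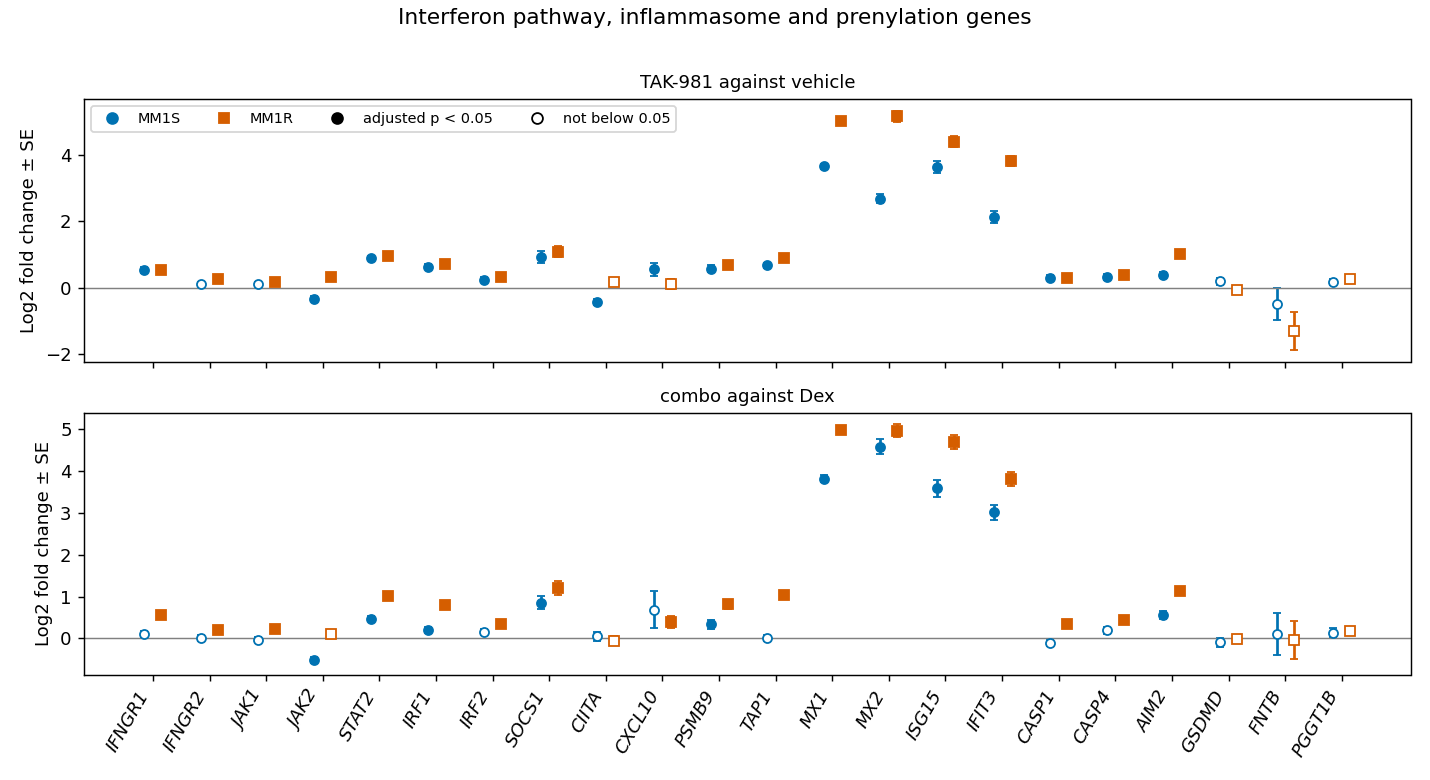
Fitted log2 fold change with its SE for named genes of the interferon pathway, inflammasome and prenylation lists, TAK-981 against vehicle above and combo against Dex below, MM1S in blue and MM1R in orange. Filled symbols have an adjusted p under 0.05. MX1 and MX2 reach 5.05 and 5.18 in MM1R in the upper panel, and FNTB and PGGT1B are open in both panels.

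Of 6 tested genes of the inflammasome and cell death list, 4 were higher with TAK-981 in each line and none was lower. CASP4, the caspase that guanylate-binding proteins help to bring to bacterial lipopolysaccharide, rose by 0.32 in MM1S (edgeR adjusted p = 0.00597) and 0.39 in MM1R (adjusted p = 0.0016). CASP1 rose by 0.30 and 0.27. AIM2, a sensor of DNA, rose by 0.38 in MM1S and by 1.03 in MM1R. GSDMD, the pore protein that these caspases cut, was not called in MM1S (0.19, adjusted p = 0.135) or MM1R (-0.08, adjusted p = 0.534). NLRP3, IL1B and IL18 had at most 4 counts in any library.

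No gene of the list of prenylation enzymes passed the test upward. Of 5 tested genes 1 fell in each line, ICMT, named after its value was seen, by 0.70 in MM1S (edgeR adjusted p = 1.86e-08) and 0.60 in MM1R (adjusted p = 1.32e-07). PGGT1B, the specific subunit of the enzyme that adds geranylgeranyl groups, differed by 0.17 (adjusted p = 0.187) and 0.24 (adjusted p = 0.0517). FNTB was at or below 0.519 CPM in the means of both groups of both lines.

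The same lists were read in the combination against Dex, which shares no library with TAK-981 against vehicle. The lists, like the family, were chosen with earlier results of these libraries known. The transcription factors had 6 of 10 higher and 2 lower in MM1S, and 10 of 10 higher in MM1R. The type I list had 29 and 30 of 30 higher, with medians of 1.91 and 2.30, and BST2 was again the gene not called, in MM1S. The interferon-γ list had 7 of 17 higher and 2 lower in MM1S, and 14 higher and 1 lower in MM1R, with medians of 0.26 and 0.81. Of all genes 47.6% passed this test in MM1S and 48.4% in MM1R, with 22.2% and 23.1% higher. In MM1S the share of the interferon-γ list called in either direction was near that of all genes. IRF1 rose by 0.20 in MM1S (SE 0.0666, adjusted p = 0.0171) and by 0.80 in MM1R (SE 0.0659, adjusted p = 1.53e-08). TAP1 was at 104 against 103 CPM in MM1S (0.01, adjusted p = 0.913) and rose from 104 to 212 CPM in MM1R (1.03, adjusted p = 2.81e-09).

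With Dex alone in MM1S, where 42.3% of all genes passed the test, 13 of the 30 type I genes and 7 of the 17 interferon-γ genes did, shares near that of all genes. CIITA fell from 57 to 22.7 CPM (log2 fold change -1.33, SE 0.102, edgeR adjusted p = 5.44e-09) and CXCL10 from 4.14 to 0.612 CPM (-2.74, SE 0.306, adjusted p = 8.16e-07). MX2 fell by 1.90 (adjusted p = 3.77e-06). IFNGR1 rose from 24.9 to 46.8 CPM (0.91, adjusted p = 6.71e-08), SOCS1 rose from 3.23 to 6.97 CPM (1.11, adjusted p = 5.12e-05) and CASP1 rose by 0.65 (adjusted p = 9.86e-07). The type I list had 6 of 30 higher and 7 lower, with a median of -0.08, and the interferon-γ list 4 of 17 higher and 3 lower, with a median of 0.03. IRF1 was not called (0.07, adjusted p = 0.436).

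The genes on both sides of the cluster were also read. Within 500000 bases the table holds 10 other genes, 8 of which passed the filter, after 2 entries with a listed span of over 5 Mb were left out. With TAK-981, 1 of the 8 was higher and 3 were lower in MM1S, and 1 was higher and 2 lower in MM1R, and the log2 differences spanned -1.12 to 0.76 and -0.77 to 0.47. GTF2B, a general transcription factor gene before GBP3, rose by 0.23 in MM1S (edgeR adjusted p = 0.0374) and was not called in MM1R (0.19, adjusted p = 0.0687). KYAT3 and RBMXL1, between GTF2B and GBP3, were not called in either line. LRRC8C fell in both lines, by 1.12 (MM1S, adjusted p = 9.58e-08) and 0.77 (MM1R, adjusted p = 8.19e-06).

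**Figure D5:**
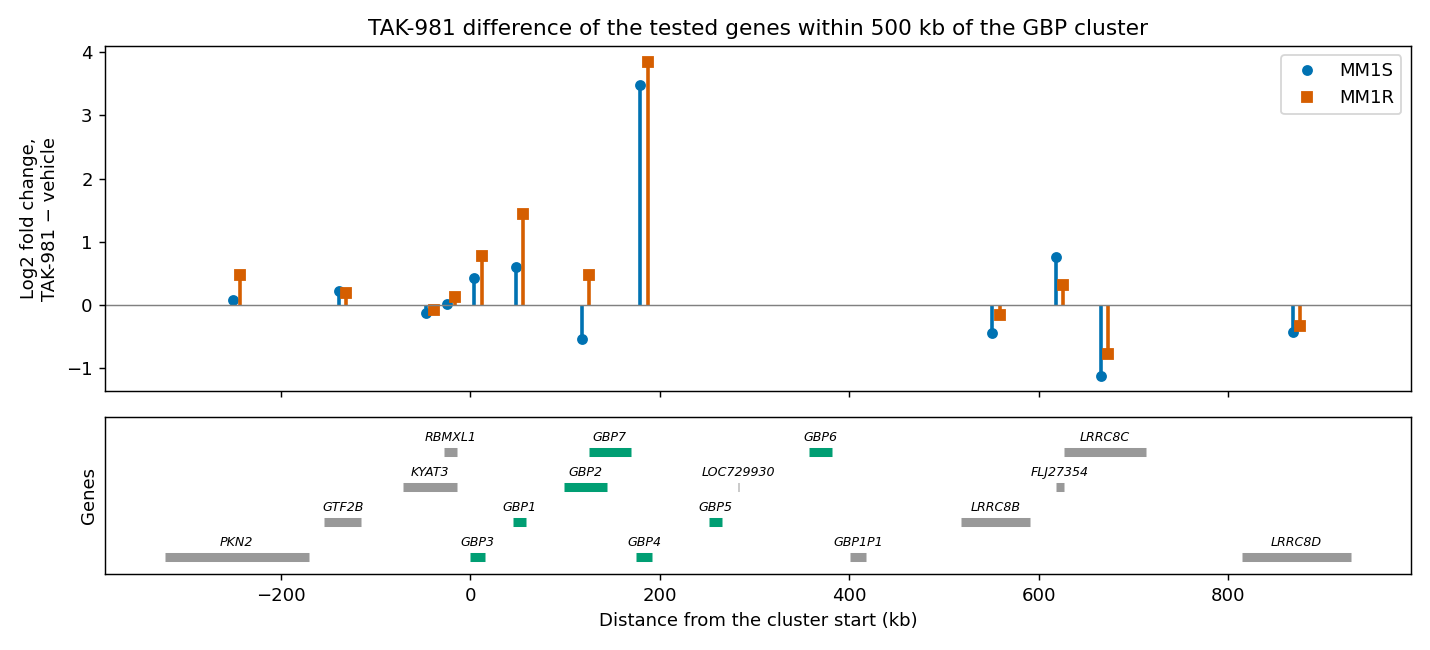
Log2 fold change of TAK-981 against vehicle for the tested genes in and around the cluster (upper panel, MM1S in blue, MM1R in orange), at the middle of each gene, with the genes drawn below to scale (family in green, others in grey). The horizontal axis is the distance in kb from the start of GBP3. GBP4 stands at 3.48 and 3.85, and the genes outside the cluster lie between -1.12 and 0.76.

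The genes whose log2 CPM was most like the mean profile of the 4 members over the 16 libraries were TCF4 (Pearson r = 0.972), LRRC2, SIAE, RARRES3 and TLR1 (r = 0.963). None of these was among the 5 when each line was centred on its own mean, where ST3GAL5 came first (r = 0.981). The 2 most like GBP1 were CEACAM1 (r = 0.983) and TLR1 (r = 0.981), and the 2 most like GBP3 were FITM2 (r = 0.988) and KCNN3 (r = 0.979). For GBP2 they were GAS2L1 (r = 0.988) and WLS (r = 0.958), and GAS2L1 also came first for GBP2 with the lines centred (r = 0.95).

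For GBP4 they were CD68 and HERC6, both with r = 0.986. CD68 is also on the list of myeloid markers, and with ITGAM it was higher with TAK-981 in both lines. CD68 rose from 18.5 to 34.7 CPM in MM1S (log2 fold change 0.91, edgeR adjusted p = 2.98e-08) and from 16.4 to 35.9 CPM in MM1R (1.13, adjusted p = 2.1e-09). The summed level of the 6 markers was 18.8 to 20.6 CPM in MM1S vehicle and 37.5 to 39.5 CPM in MM1S TAK-981, and 17.4 to 18.6 and 39 to 40.2 CPM in MM1R. The other markers of this list reached at most 0.454 CPM (CD14), 0.0906 CPM (LYZ), 0.317 CPM (CSF1R) and 0.055 CPM (FCGR3A) in any library. All libraries are of myeloma cell lines, and the part of these marker genes in the result was not tested. In bulk RNA fewer cells of a type and less RNA per cell cannot be told apart.

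The members resemble each other in sequence, and the counting of shared reads is not described in the sources used here. Among the GENCODE release 29 transcripts, 13.3% of the windows of 50 bases in GBP1 occurred in a transcript of another gene, 10.9% in the pseudogene GBP1P1 and 3.11% in GBP3. The share was 3.89% for GBP3, 3.09% for GBP2, 4.08% for GBP4 and 0.643% for GBP5. At 100 bases it was 1.87% for GBP1, 0% for GBP2 and GBP3 and 0.0995% for GBP4. For GBP7 it was 21.3% at 100 bases, all with GBP2. The windows came from protein-coding transcripts only and were looked up in all transcripts, so the 0% of GBP2 leaves out its other transcripts. Since GBP2 and GBP7 overlap on the same strand, the few GBP7 reads are uncertain, and reads of GBP2 there may be affected too. GBP1P1 had at most 7 counts over the 2 libraries of any group.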

How the data were processed

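MM1S and MM1R total RNA was sequenced in 16 libraries. The submitters' processing notes name bcl2fastq 2.18.0.12, STAR 2.6.0, HTSeq 0.6.0, edgeR 3.28.1 and hg19; the annotation and the use of strand are not given in the sources used here. The authors deposited whole-number counts per gene without normalization, with each gene's position and length, and these counts were used as deposited. Libraries were matched to groups by title.

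Genes were kept with edgeR's filterByExpr (count minimum 10, total 15), which left 14215 of 23354. After TMM scaling, edgeR 4.0.16 (R 4.3.3) fitted the 8 groups of the 16 libraries together, and contrasts were tested with its robust quasi-likelihood F test (8 residual degrees of freedom). P-values were adjusted by Benjamini-Hochberg across the 14215 genes, and 0.05 was the threshold. Standard errors and 95% intervals (unadjusted) come from this fit. The procedure was tested on simulated counts. Counting limits cover counting error only.

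The members, the lists and the tests were chosen with earlier results of these data known. Text named all members, GBP6 and GBP7, fixed genes of each list (1 of them is not reported here), the genes within 500000 bases, and the genes most alike by Pearson r. Promoter windows came from RefSeq (GRCh38.p14), whose coordinates were not converted. Alternatives were RLE scaling, library size only, no filter, a replicate block, DESeq2 1.42.0, a fit of 1 line, a minimum log2 fold change of 1 in either direction, and the omission of single libraries.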

Additional observations from a re-analysis of the deposited data

Results flagged for a closer look

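The response to Dex differed between the lines by the interaction test in edgeR for all 4 tested members, in MM1R minus MM1S on the log2 scale: 0.35 (GBP1), 2.05 (GBP2), 0.41 (GBP3) and -1.17 (GBP4). For GBP1, GBP2 and GBP3 the MM1S value lay below 0 and the MM1R value near it, and for GBP4 the MM1S libraries were higher with Dex and the MM1R libraries lower. Of all genes 28.1% were called. The call for GBP1 was lost without the filter on low counts, in DESeq2 and without any 1 of 4 single libraries. That for GBP4 was lost without replicate 2 of MM1R vehicle.

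The difference of the combination from Dex alone also differed between the lines, by 0.63 for GBP1, 0.50 for GBP3 and 2.37 for GBP4, with the larger difference in MM1R in each case. Of all genes 12.7% were called in this comparison.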

How the results depend on the processing

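Directions and calls of the members were recomputed under 6 alternatives to the model and with each of the 16 libraries left out. Of 320 values of single members under the 6 alternatives all kept their direction, and 315 also their side of the threshold or, where untested, a shift within the spread between replicates. GBP3 in TAK-981 against vehicle of MM1S, untested, shifted further, to 0.378 with library size only. The calls that changed were GBP1 in the line difference in Dex (no filter, DESeq2), GBP1 in combo against TAK-981 of MM1S (replicate block) and GBP4 between the vehicle-treated lines (library size only). When a log2 fold change beyond 1 in either direction was also required, the number of members called became 1 for Dex, combo against Dex, combo against TAK-981 (each in MM1S) and the vehicle-treated lines, 2 for combo against Dex in MM1R, 2 for the line difference in Dex and 1 for the line difference in combo against Dex, by the construction of the threshold. With 1 library left out, the members called ran from 2 to 4 for Dex in MM1S and for the line difference in Dex. The lower counts were those without replicate 1 of MM1S vehicle and replicate 2 of MM1R vehicle. The untested median of combo against vehicle in MM1R ran from 1.05 to 1.26. Leaving out a library turned the sign only of differences near 0, and the cause was not tested: with Dex in MM1R GBP1 ran from -0.0686 to 0.0866 and GBP2 from -0.497 to 0.401, in combo against TAK-981 of MM1R GBP2 ran from -0.0531 to 0.255, GBP3 from -0.0474 to 0.0656 and GBP4 from -0.188 to 0.0366, and the line difference of GBP2 in combo against Dex ran from -0.0563 to 0.722.

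Nothing states that libraries with the same replicate number share more than that number. Their deviations from the group means correlated by 0.0162 to 0.263 in MM1S and by -0.0134 to 0.0821 in MM1R. The highest value was that between TAK-981 and Dex of MM1S. With a replicate block GBP1 passed the test in combo against TAK-981 of MM1S (log2 fold change -0.18, adjusted p = 0.0413, against 0.0413 to 0.171 over the settings), and no other call of a member changed. Over all genes the block raised the calls in every comparison that had any, for the line difference in combo against Dex from 1804 to 2858. GBP5 could not be tested at 0 to 5 counts, and GBP2 in MM1R, at 11 to 25 counts per library, had a 95% interval from -0.82 to 0.71 for Dex against vehicle.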
